A study of Mus musculus with 31 samples.

Results

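A set of 10 lysosomal protease and cystatin genes was followed across the brain transcriptomes of APP/PS1 mice with and without a PLCγ2-P522R knock-in (KI): the cystatins Cst7 and Cst3, and the cathepsins Ctsb, Ctsl, Ctss, Ctsc, Ctsh, Ctsz, Ctsd and Ctsa. These 10 of the 55401 annotated genes were taken by gene symbol, and all 10 passed the filter on low counts in every comparison. The data comprised 31 RNA-seq libraries, each of 1 mouse aged 13 months. Female temporo-occipital cortex comprised A-/Pwt/wt (n = 1), A+/Pwt/wt (n = 4) and A+/Pki/ki mice (n = 4). Cells of whole brain selected with CD11b (CD11b+ microglia) were from female A-/Pwt/wt (n = 7), A+/Pwt/wt (n = 4) and A+/Pki/ki mice (n = 4), and from males without APP/PS1 that were WT (n = 3) or homozygous for the KI allele (KI, n = 4). A+ mice carry the APP/PS1 transgenes and A- mice do not. The prion protein promoter of the mouse drives these transgenes, which encode Swedish-mutant APP, part mouse and part human in sequence, and the dE9 deletion form of human presenilin 1. Pki/ki denotes homozygosity for the P522R allele of Plcg2, made by CRISPR/Cas9 on the C57BL/6J background that all groups share. The transgenes are therefore not restricted to microglia, the KI allele is present in all cells of the animal, and female KI mice without APP/PS1 were not analysed here.

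Cathepsins are the proteases of the endosome and lysosome. They are made as inactive proenzymes, carried to the lysosome mainly by mannose 6-phosphate receptors and activated at low pH, where they degrade proteins taken up from outside the cell or delivered by autophagy. Cathepsins B, L, S, C, H and Z are cysteine proteases, cathepsin D is an aspartic protease and cathepsin A is a serine carboxypeptidase. Cystatins are tight-binding inhibitors of the cysteine cathepsins: cystatin C, encoded by Cst3, is secreted by many cells, whereas cystatin F, encoded by Cst7, is made by immune cells and acts inside their endolysosomes, with cathepsin C as its best-known target. In the brain the group is known mostly from microglia, the resident macrophages, and Cst7 is a widely used transcript of microglia near amyloid plaques.

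Both cystatins lie on chromosome 2 of the mouse genome (GRCm38), Cst7 at chr2:150570415-150578944 and Cst3 at chr2:148871722-148875692. Ctsa (chr2:164832873-164841032) and Ctsz (chr2:174427493-174439039) are on the same chromosome, Ctsc (chr7:88278085-88310888) and Ctsd (chr7:142375911-142388038) on chromosome 7, Ctsb at chr14:63122462-63145923, Ctsl at chr13:64359337-64370890, Ctss at chr3:95526786-95556403 and Ctsh at chr9:90054152-90076089. Values are sums over the exons of each gene, counted without regard to strand. Exons of Ctsa overlap Neurl2 and Pltp, those of Ctsb overlap Fdft1, those of Ctsz overlap Nelfcd, and those of Ctsl and Ctsd overlap predicted genes, so that counts of these 5 genes are uncertain to that extent, whereas no overlap was annotated for Cst7, Cst3, Ctss, Ctsc and Ctsh.

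RefSeq promoter entries (GRCm38.p6) were found for 8 of the 10 genes, with a pair of entries for Ctsa and none for Ctsb and Ctsh. The 250 bases before the annotated start are shown, 5′ to 3′ on the gene's strand, for Cst7, which changed most between the groups below, for Ctsz, which was higher in A+ cortex and A+/Pki/ki microglia, and for Ctsc, the gene of the main target of cystatin F, which passed the test in neither. Capitals mark GGAAGT or its reverse complement ACTTCC, the core of the binding motif of the myeloid factor PU.1.
Cst7, chr2:150570165-150570414, + strand: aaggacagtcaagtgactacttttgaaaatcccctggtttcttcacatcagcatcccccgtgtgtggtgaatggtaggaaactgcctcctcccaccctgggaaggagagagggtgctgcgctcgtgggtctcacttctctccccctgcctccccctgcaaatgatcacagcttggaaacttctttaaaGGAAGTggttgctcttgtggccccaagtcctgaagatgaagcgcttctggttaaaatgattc
Ctsz, chr2:174439040-174439289, - strand: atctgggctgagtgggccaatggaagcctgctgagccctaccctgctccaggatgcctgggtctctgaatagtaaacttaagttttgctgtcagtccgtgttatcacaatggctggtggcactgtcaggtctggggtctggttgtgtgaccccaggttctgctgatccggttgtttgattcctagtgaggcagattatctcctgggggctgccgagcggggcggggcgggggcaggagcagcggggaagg
Ctsc, chr7:88277835-88278084, + strand: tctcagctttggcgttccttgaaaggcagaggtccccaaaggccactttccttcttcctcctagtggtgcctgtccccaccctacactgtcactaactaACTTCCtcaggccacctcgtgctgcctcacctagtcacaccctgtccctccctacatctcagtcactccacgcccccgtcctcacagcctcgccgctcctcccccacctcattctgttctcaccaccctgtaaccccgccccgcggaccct
GGAAGT was found on either strand in 3 of the 8 genes (Cst7, Ctsc and the second entry of Ctsa). The 8 genes have 9 windows, because Ctsa has 2. Of all 32851 RefSeq promoter windows of the same length, 19.7% held it. CACGTG, the palindromic E-box read by the lysosomal regulators of the TFEB family, was found in Ctsd (at 2 places), Ctsl and the second entry of Ctsa, and in 6.02% of all windows. The 4 places are shown with their flanks and the motif in capitals, to set beside the values of these 3 genes. Each window lies before the start of its own RefSeq entry. By the gene coordinates above, the stretches of Ctsl and Ctsa and the second of Ctsd lie inside the gene, past its outermost annotated start. The whole windows of Ctsl and of the second entry of Ctsa lie there too. Only the first stretch of Ctsd lies before that start.
Ctsd, chr7:142388055-142388077, - strand: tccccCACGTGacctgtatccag
Ctsd, chr7:142387908-142387937, - strand: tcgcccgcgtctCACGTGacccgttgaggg
Ctsl, chr13:64370739-64370768, - strand: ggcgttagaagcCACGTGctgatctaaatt
Ctsa, chr2:164833749-164833772, + strand: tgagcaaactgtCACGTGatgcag
TGANTCA, the AP-1 motif, was in none of the 8 genes and in 6.75% of all windows. A match is a string of letters and not a shown binding site, and its absence from these windows says nothing of the factor.

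Levels are given as CPM, counts scaled to a common library size after trimmed-mean (TMM) scaling of the libraries of 1 table, and differences as log2FC, the log2 of the fold change fitted by edgeR, with its standard error (SE). The libraries held 18918255 to 25118180 counts in female CD11b+ microglia, 16229831 to 19946001 in male CD11b+ microglia and 25226544 to 43129427 in cortex. No pair of libraries of a group agreed within counting noise. The 12 microglial markers had a score (mean log2 CPM) of 9.68 to 10.56 in A-/Pwt/wt female CD11b+ libraries, against 4.95 to 6.11 in cortex. RNA of other brain cells was present in the CD11b+ libraries and varied between them. By summed CPM the 8 oligodendrocyte markers exceeded the 12 microglial markers in A-/Pwt/wt females (medians 36149 against 21952 CPM), although their score was lower (7.04 to 9.30). Oligodendrocyte scores were 7.39 to 8.55 in A+/Pwt/wt and 6.06 to 8.92 in A+/Pki/ki females. Scores in A-/Pwt/wt, A+/Pwt/wt and A+/Pki/ki females were 5.35 to 7.53, 6.24 to 7.49 and 4.75 to 7.10 for astrocytes, 6.90 to 7.60, 6.82 to 7.84 and 5.92 to 7.35 for endothelial and mural cells, and 3.42 to 6.63, 4.47 to 5.45 and 2.42 to 5.73 for neurons. The A-/Pwt/wt library of mouse 223 had the highest neuron, astrocyte and oligodendrocyte scores of its group and the lowest level of each of the 10 genes in its group, so results that rest on it are given with and without it. In male CD11b+ microglia, neither the neuron scores (2.67 to 3.27 in WT and 4.25 to 5.36 in KI) nor the oligodendrocyte scores (6.91 to 7.20 and 7.56 to 8.33) overlapped. The column names tag the A+ females and the A- females as different batches, so that batch and APP/PS1 cannot be told apart in female CD11b+ microglia, while the tag is the same within each KI comparison and absent in cortex. The labels put the mouse number 236 on an A-/Pwt/wt CD11b+ library and on an A+/Pwt/wt cortex library. These genotypes exclude 1 shared animal, and each library was kept in its labelled group. Plcg2 itself did not pass the test in any comparison (log2FC -0.36 with adjusted p = 0.0581 in KI males), and its transcript level does not report on a point mutation.

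In A-/Pwt/wt female microglia, the 10 genes together took 1.17% to 3.45% of all counts (median 2.85%). Per kilobase of exon, Cst3 was the most abundant of the set at 10942 ± 3030.4 CPM per kb (mean ± SD, n = 7), followed by Ctss at 3211 ± 871 and Ctsd at 1629 ± 457 CPM per kb. The carboxypeptidase gene Ctsz (519 ± 137 CPM per kb) came next, and then Ctsb (369.9 ± 79.6 CPM per kb) and Ctsa (145 ± 30.8 CPM per kb). Ctsl, Ctsh and Ctsc were lower (79.9, 70.4 and 49.5 CPM per kb), and Cst7 was the lowest at 21.7 ± 8.69 CPM per kb. Each gene was above the next in this order in all 7 libraries, with the exception of Ctsl, which was above Ctsh in 5 of 7.

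The first comparison addressed what APP/PS1 changes in microglia. In A+/Pwt/wt compared with A-/Pwt/wt females, Cst7 rose 32.5-fold, and the cysteine protease genes Ctsb and Ctsl rose 2.03-fold and 2.11-fold, whereas Cst3, Ctss, Ctsc and Ctsh differed by less than the spread between libraries. Under edgeR's quasi-likelihood test with Benjamini-Hochberg adjustment, these 3 of the 10 genes passed an adjusted p of 0.05 as higher and none as lower, where 1.01% of all 17355 genes tested were called higher. The median log2FC of the 10 genes was 0.82, compared with -0.03 for all genes tested. In 5 of the 10 genes (Cst7, Ctsa, Ctsb, Ctsd and Ctsz) every A+/Pwt/wt library lay above every A-/Pwt/wt library, which held for 2.11% of all genes.

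Cst7, the gene of cystatin F, was at 9.13 to 32.3 CPM in the 7 A-/Pwt/wt libraries (median 23.9 CPM) and at 553, 620.0, 781 and 817 CPM in the 4 A+/Pwt/wt libraries. The lowest A+/Pwt/wt library was thus far above the highest A-/Pwt/wt library (log2FC 5.02, SE 0.30, adjusted p = 2.84e-06). Cst7 went from the last place in the set to the sixth, above Ctsa, Ctsl, Ctsh and Ctsc per kilobase of exon (703 CPM per kb in A+/Pwt/wt). This place depends on the exon lengths. In mean CPM of A+/Pwt/wt, Cst7 (693 CPM) was below Ctsa (1130 CPM) and Ctsl (1092 CPM). Cst3, the gene of the secreted inhibitor cystatin C, was at 7662 to 18684 CPM in A-/Pwt/wt (median 13668 CPM) and at 10308, 11666, 13671 and 15022 CPM in A+/Pwt/wt. The groups overlapped, with a log2FC of -0.13 and a 95% interval of -0.64 to 0.38.

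Among the endopeptidases, Ctsb, whose product also removes dipeptides from the carboxy terminus, was at 1302 to 2785 CPM in A-/Pwt/wt (median 2269 CPM) and at 3364, 4609.6, 4823 and 5376 CPM in A+/Pwt/wt (log2FC 1.02, SE 0.21, adjusted p = 0.0349). Ctsl, the gene of a broadly acting endopeptidase, was at 304 to 675 CPM in A-/Pwt/wt (median 499 CPM) and at 672, 1118, 1245 and 1333 CPM in A+/Pwt/wt (log2FC 1.08, SE 0.23, adjusted p = 0.0366). The Ctsb groups did not overlap, and the lowest A+/Pwt/wt library of Ctsl fell just under the highest A-/Pwt/wt library. Ctss, whose product trims the invariant chain of MHC class II, was at 2473 to 6005 CPM in A-/Pwt/wt and at 4872, 5066, 5301 and 6969 CPM in A+/Pwt/wt, with overlap between the groups (log2FC 0.35, SE 0.24, adjusted p = 0.726).

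Among the exopeptidases, Ctsz, the gene of a carboxypeptidase, was at 359 to 1004 CPM in A-/Pwt/wt (median 771 CPM) and at 1152, 1427, 1552 and 1742 CPM in A+/Pwt/wt. The groups did not overlap, but the adjusted p was just above the threshold (log2FC 0.97, SE 0.22, adjusted p = 0.0600), and it was under it in each of 7 other ways of scaling, filtering, testing or choosing libraries (adjusted p = 0.000950 to 0.0484). Ctsc, the gene of the dipeptidyl peptidase that activates the serine proteases of immune granules, was at 174 to 350.0 CPM in A-/Pwt/wt and at 250.1, 319, 356 and 364 CPM in A+/Pwt/wt (log2FC 0.16, SE 0.18, adjusted p = 0.906). Ctsh, the gene of an aminopeptidase, was at 185 to 397 CPM and at 294, 346, 348 and 424 CPM, respectively (log2FC 0.15, SE 0.18, adjusted p = 0.919). Both overlapped between the groups, and their 95% intervals (-0.18 to 0.51 for Ctsc and -0.20 to 0.51 for Ctsh) leave out a doubling.

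The genes of the proteases of other classes, Ctsd and Ctsa, had positive log2FC but did not pass the test. Ctsd, the gene of the aspartic protease cathepsin D, was at 1697 to 5007 CPM in A-/Pwt/wt (median 3797 CPM) and at 5697, 7024, 7529.7 and 8786 CPM in A+/Pwt/wt (log2FC 0.92, SE 0.26, adjusted p = 0.134). Ctsa, whose product also protects β-galactosidase and neuraminidase in the lysosome, was at 392 to 833 CPM in A-/Pwt/wt (median 708 CPM) and at 948, 1035, 1194 and 1345 CPM in A+/Pwt/wt (log2FC 0.72, SE 0.19, adjusted p = 0.108). Neither gene overlapped between the groups.

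**Figure D1:**
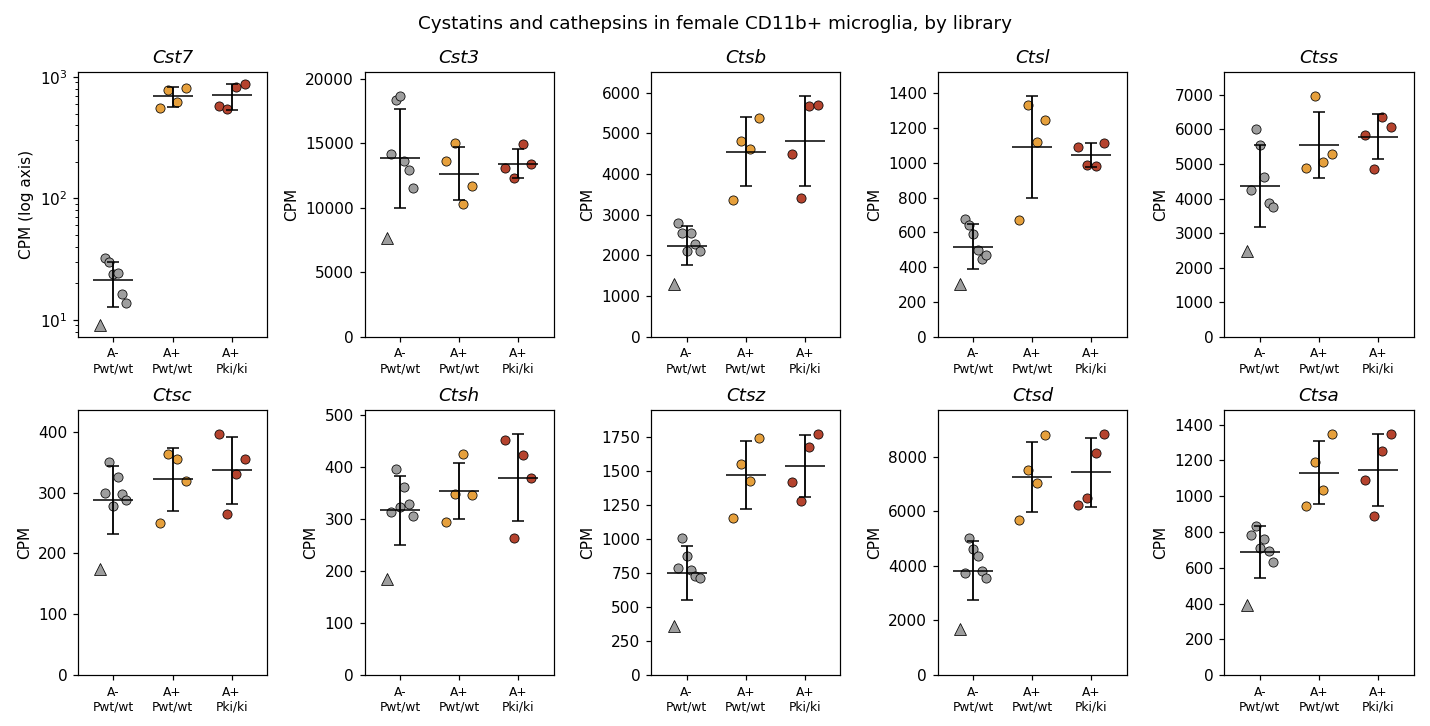
CPM of the 10 genes in each female CD11b+ library (y axis; logarithmic for Cst7, linear from 0 for the others) by genotype (x axis), with 1 point per library and the mean ± SD as bars; the triangle is the A-/Pwt/wt library of mouse 223. Cst7 separates A- from A+ libraries (9.13 to 32.3 against 553 to 817 CPM in A+/Pwt/wt), Ctsb, Ctsz, Ctsd and Ctsa separate them by less, and Cst3, Ctss, Ctsc and Ctsh overlap.

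Without the library of mouse 223, the same 3 genes and also Ctsz, Ctsd and Ctsa passed the test as higher (6 of 10, where 1.41% of all genes did), with adjusted p of 0.00877, 0.0282 and 0.0266. Of the 11 fits that each left out 1 library, Cst7 passed in all 11, but Ctsb and Ctsl passed only without mouse 223 (A-/Pwt/wt) or mouse 331 (A+/Pwt/wt), and Ctsz also passed without mouse 331. In these 11 fits the log2FC ran from 0.92 to 1.14 for Ctsb and from 0.96 to 1.25 for Ctsl. Other cell types moved beside these genes: all 7 markers of border macrophages had negative log2FC (Pf4 and Cd163 passed the test as lower, as did 0.282% of all genes; scores 4.56 to 5.83 in A-/Pwt/wt and 4.15 to 4.55 in A+/Pwt/wt), as had all 8 neutrophil markers, of which none passed (scores 2.26 to 5.77 and 1.17 to 3.19), and their part in the result was not tested. In such sums over many cells, fewer cells of a type and less RNA per cell cannot be told apart.

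A+/Pki/ki females were compared with the same A-/Pwt/wt libraries, so this comparison and the one above share their controls. The called genes were those above and Ctsz. Cst7 was at 549.6, 574, 822 and 876 CPM in the 4 A+/Pki/ki libraries (log2FC 5.10, SE 0.32, adjusted p = 9.65e-06). Ctsb at 3404, 4484, 5678 and 5703 CPM (log2FC 1.16, SE 0.23, adjusted p = 0.0296), Ctsl at 982, 990.2, 1092 and 1117 CPM (log2FC 1.06, SE 0.19, adjusted p = 0.0165) and Ctsz at 1279, 1420.5, 1674 and 1769 CPM (log2FC 1.09, SE 0.22, adjusted p = 0.0343) passed the test as well. Thus 4 of the 10 genes were called higher and none lower, against 1.35% of all 17446 genes called higher. No overlap with the A-/Pwt/wt libraries was seen for 6 genes (Cst7, Ctsa, Ctsb, Ctsd, Ctsl and Ctsz), and for 2.30% of all genes. Ctsd (log2FC 1.00, SE 0.27, adjusted p = 0.0909) and Ctsa (log2FC 0.79, SE 0.20, adjusted p = 0.0728) missed the threshold here too, but passed without the library of mouse 223 (adjusted p = 0.0324 and 0.0292). Of 7 other ways of scaling, filtering, testing or choosing libraries, Ctsd passed in 4 and Ctsa in 3. Over these 7, the adjusted p ran from 0.00208 to 0.172 for Ctsd and from 0.00174 to 0.119 for Ctsa. In the 11 fits that each left out 1 library, Cst7 passed in all 11, Ctsl missed the threshold without mouse 244, 394 or 405, Ctsb passed without mouse 223, 242 or 335, and Ctsz without mouse 223 or 335. Ctsd and Ctsa also passed without mouse 335. The library of mouse 335 stood apart from the other A+/Pki/ki libraries, with a neutrophil score of 7.20 (1.03 to 4.66 in the others) and 64544 summed CPM of oligodendrocyte markers (6657 to 27316 in the others), and without it 1097 genes were called in place of 286. All 7 border macrophage markers had negative log2FC (scores 4.15 to 4.79; 1, Cbr2, passed as lower, as did 0.287% of all genes), all 8 neutrophil markers had positive and all 12 neuronal and 8 oligodendrocyte markers negative log2FC, of which none passed, and their part in the result was not tested. For Ctss (log2FC 0.46), Ctsc (0.27) and Ctsh (0.31), the adjusted p ranged from 0.393 to 0.487, and Cst3 was at a log2FC of 0.00 (95% interval -0.53 to 0.54).

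The KI effect within APP/PS1 was addressed by comparing A+/Pki/ki with A+/Pwt/wt females. No member differed beyond the spread between libraries in CD11b+ microglia: log2FC ran from -0.06 to 0.10, and the 10 genes overlapped between the groups, while 2.17% of all genes did not. For Cst7 the 95% interval of the log2FC was -0.38 to 0.44, and for Ctsd -0.42 to 0.49, so that a difference within these limits is not shown to be absent. edgeR called 0 of the 10 genes and 0% of all 17039 genes (575 had an unadjusted p under 0.05, none of them among the 10). DESeq2 called 7 genes and limma 0, and neither called a member. Of the 10 log2FC, 9 were positive, but under scaling to 10 general myeloid genes all 10 were negative (median -0.12, where the median of all genes was -0.18), so no direction can be given. Beside this, all 12 neuronal, 10 astrocyte, 8 oligodendrocyte, 8 endothelial and mural and 6 choroid plexus markers had negative log2FC. All 12 microglial markers (median 0.22), all 10 general myeloid genes (median 0.21) and all 8 neutrophil markers had positive log2FC. None of these passed the test, and their part in the values of the members was not tested. In cortex, A+/Pki/ki and A+/Pwt/wt likewise overlapped for each of the 10 genes (1.87% of all genes did not overlap). The log2FC ran from -0.14 for Cst7 (95% interval -0.41 to 0.13) to 0.06, and edgeR called 0 of the 10 and 0% of all 18640 genes, with 514 genes and no member at an unadjusted p under 0.05. DESeq2 called 11 genes and limma 0, again without a member.

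**Figure D2:**
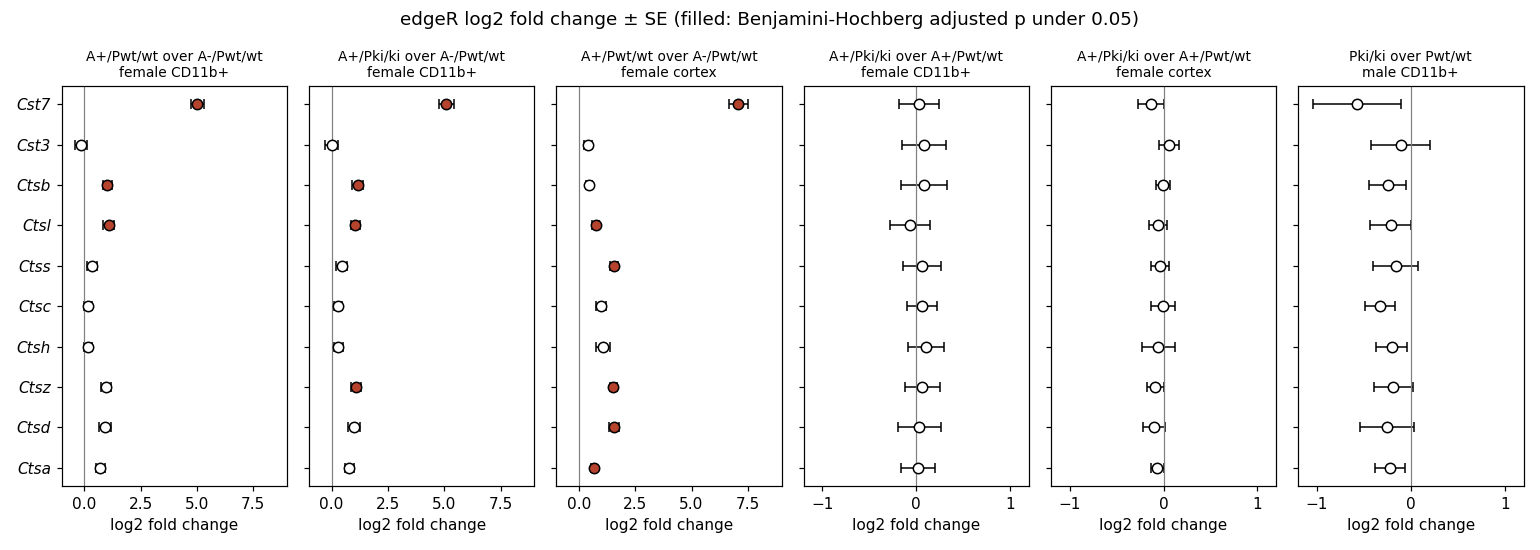
Log2 fold change ± SE of the 10 genes from edgeR (x axis) in 6 comparisons (panels), with filled points for an adjusted p under 0.05 over all genes; the left 3 panels run from -1 to 9 and the right 3 from -1.2 to 1.2. In the panels that set A+ against A-, Cst7 stands at 5.02, 5.10 and 7.08, and in the KI panels no point is filled.

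The ratio of cystatin to cathepsin transcripts differed between A- and A+ libraries. Cst7 amounted to 0.256% to 0.537% of the summed level per kilobase of the 8 cathepsins in A-/Pwt/wt microglia (median 0.329%). It was 6.97% to 8.01% in A+/Pwt/wt and 6.29% to 8.07% in A+/Pki/ki. The level of Ctsc was 1.57 to 3.55 times that of Cst7 in A-/Pwt/wt libraries and 0.0663 to 0.0973 times in A+/Pwt/wt, so that per kilobase the transcripts of cystatin F were fewer than those of cathepsin C in each A-/Pwt/wt library and more in each A+/Pwt/wt library. Cst3 was lower relative to the proteases in A+ libraries, from 1.64 to 2.00 times the summed cathepsin level in A-/Pwt/wt to 0.891 to 1.39 times in A+/Pwt/wt and 0.960 to 1.18 times in A+/Pki/ki, with no overlap between A- and A+ libraries. These ratios are within a library and do not depend on its scaling, and they are given without a test. Their size does depend on the exon lengths used.

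**Figure D3:**
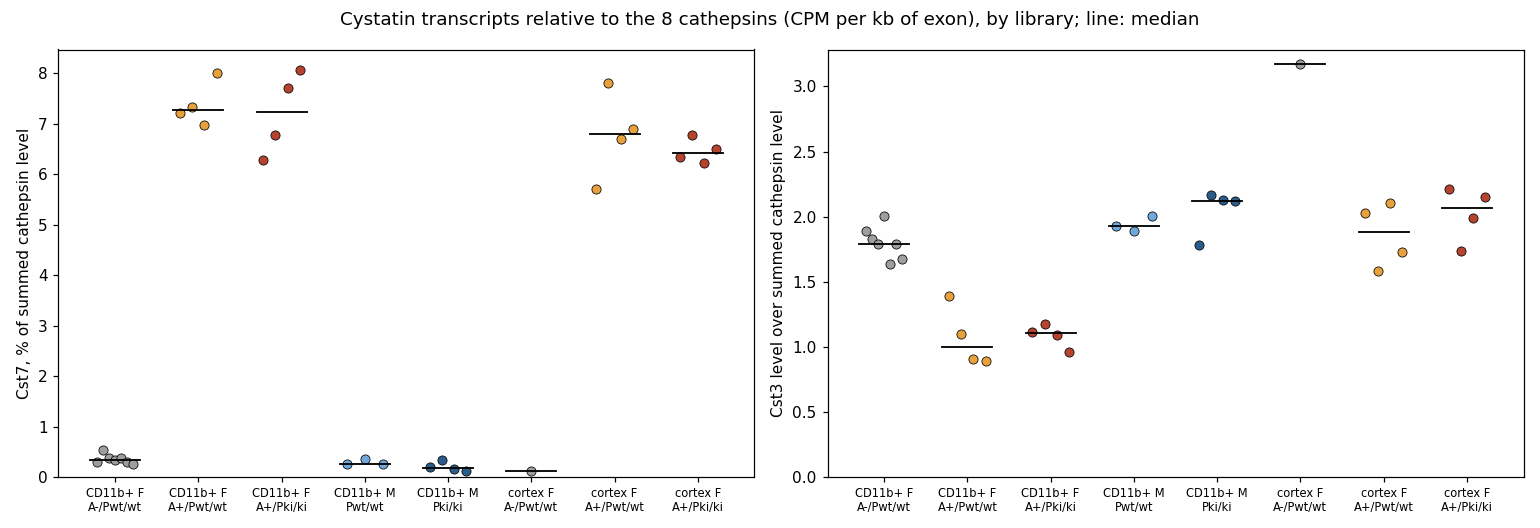
Cst7 as a percentage of (left y axis), and Cst3 as a multiple of (right y axis), the summed CPM per kb of exon of the 8 cathepsins, with 1 point per library and the median as a line for each of the 8 groups (x axis). Cst7 is at 5.71% or more in each A+ library of either tissue and at 0.537% or less in each A- library, and the A+ CD11b+ libraries have the lowest Cst3 multiples.

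Genes around the cathepsins changed in part. Of 13 other lysosomal proteases, 11 were tested in the comparison of A+/Pwt/wt with A-/Pwt/wt microglia, and 2 passed as higher: Ctse, the gene of the aspartic protease cathepsin E, at 2.15 ± 1.19 CPM in A-/Pwt/wt and 21.3 ± 8.44 CPM in A+/Pwt/wt (log2FC 3.29, SE 0.38, adjusted p = 0.000840), and Dpp7, the gene of a dipeptidyl peptidase, at 38.1 ± 8.99 and 90.0 ± 15.2 CPM (log2FC 1.24, SE 0.19, adjusted p = 0.00717). Lgmn, the gene of legumain, an asparaginyl endopeptidase that processes cathepsins, was the most abundant of the list and did not pass (log2FC -0.18, SE 0.20, adjusted p = 0.908), nor did Tpp1, the gene of a tripeptidyl peptidase (log2FC 0.46, SE 0.19, adjusted p = 0.384), and Ctsf, the gene of cathepsin F (log2FC -0.22, SE 0.16, adjusted p = 0.754), which came next in abundance. Of 20 other cystatins and cathepsin inhibitors, 7 were tested and 0 passed, with Cstb, the gene of the cytosolic cystatin B, at 25.4 ± 7.33 and 35.0 ± 5.21 CPM (log2FC 0.47, SE 0.20, adjusted p = 0.438). The other abundant members of this list were the serpin genes Serpinb6a (38.2 ± 7.14 and 37.0 ± 10.3 CPM) and Serpinb1a (6.35 ± 3.56 and 4.66 ± 1.64 CPM). Of 16 genes of lysosomal enzyme sorting and maturation, 16 were tested and 2 passed as higher: Gnptab, which encodes the transferase that makes the mannose 6-phosphate tag (28.8 ± 3.89 and 54.2 ± 9.85 CPM; log2FC 0.90, SE 0.15, adjusted p = 0.0115), and Glb1, which encodes the β-galactosidase that cathepsin A protects (59.8 ± 14.5 and 118 ± 21.1 CPM; log2FC 0.98, SE 0.20, adjusted p = 0.0318). Psap, the gene of prosaposin, was the most abundant of these (log2FC -0.03, SE 0.17, adjusted p = 0.998), followed by Grn, the gene of progranulin (log2FC 0.40, SE 0.20, adjusted p = 0.551), and Lamp1, the gene of a lysosomal membrane protein (log2FC 0.36, SE 0.15, adjusted p = 0.417). The same 4 genes and also Lamp2 (log2FC 0.78, SE 0.17, adjusted p = 0.0453) passed in A+/Pki/ki compared with A-/Pwt/wt, and none passed between A+/Pki/ki and A+/Pwt/wt. The medians of the 3 lists in the A+/Pwt/wt comparison were 0.13, -0.18 and 0.06 on the log2 scale. The 8 placental cathepsins were below the filter in all comparisons.

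The genes whose log2 CPM over the 15 female CD11b+ libraries was most like that of Cst7, out of 11290 tested genes whose mean reached 5 CPM, were Baiap2l2, Mamdc2, Igf1, Cd200r4 and Trpm1 (Pearson r 0.988, 0.983, 0.980, 0.979 and 0.978). Of the other members, Ctsb came closest (r = 0.929), followed by Ctsl (0.916) and Ctsz (0.912), and Cst3 was farthest (0.0654). The 15 libraries fall into A- and A+ clusters, so these values mostly reflect the step between them and are given as a description. Igf1, the gene of insulin-like growth factor 1, was at 8.83 ± 2.13 CPM in A-/Pwt/wt, 85.2 ± 27.5 CPM in A+/Pwt/wt and 94.3 ± 37.0 CPM in A+/Pki/ki.

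In female cortex, A+/Pwt/wt was compared with the single A-/Pwt/wt library, which was assumed to vary like the A+ libraries. Cst7, Ctsd, Ctss and Ctsz were higher in A+/Pwt/wt by 135, 2.96, 2.92 and 2.90 times, and Ctsl and Ctsa by 1.68 and 1.57 times, so that 6 of the 10 genes passed the test as higher (none as lower), against 0.872% of all 18810 genes. The median log2FC of the 10 genes was 1.03, and that of all genes 0.01. The A-/Pwt/wt library held 13 Cst7 counts, which is 0.306 CPM before TMM scaling (exact Clopper-Pearson 95% interval 0.163 to 0.523, for counting error only), whereas Cst7 was at 34.7, 36.9, 41.7 and 56.5 CPM in the A+/Pwt/wt libraries and at 34.7, 35.7, 39.4 and 45.0 CPM in the A+/Pki/ki libraries (log2FC 7.08, SE 0.42, adjusted p = 6.77e-06). Both A+ groups were far above the A-/Pwt/wt library, but the size of the fold change rests on 13 counts in that library. In 5 other ways of scaling, filtering or testing, the log2FC of Cst7 ran from 3.56 to 7.09.

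Ctsd was at 195 CPM in the A-/Pwt/wt cortex and at 477, 535, 583 and 695 CPM in A+/Pwt/wt (log2FC 1.57, SE 0.21, adjusted p = 0.00215). Ctss was at 61.7 CPM and at 155, 169, 184 and 207 CPM (log2FC 1.54, SE 0.18, adjusted p = 0.000729), and Ctsz at 36.8 CPM and at 90.8, 105, 106 and 122 CPM (log2FC 1.53, SE 0.16, adjusted p = 0.000481). For these 3 genes each A+/Pwt/wt library was more than double the A-/Pwt/wt library. Ctsl was at 68.6 CPM in A-/Pwt/wt and 102 to 134 CPM in A+/Pwt/wt (log2FC 0.75, SE 0.15, adjusted p = 0.0409), and Ctsa at 93.8 and 129 to 156 CPM (log2FC 0.66, SE 0.12, adjusted p = 0.0234). Ctsc (log2FC 0.99, SE 0.22, adjusted p = 0.0577), Ctsh (log2FC 1.08, SE 0.30, adjusted p = 0.195), Ctsb (log2FC 0.45, SE 0.13, adjusted p = 0.217) and Cst3 (log2FC 0.40, SE 0.18, adjusted p = 0.557) did not pass, although each A+/Pwt/wt library was above the A-/Pwt/wt library. In the 8 fits that each left out 1 A+ library, Ctsl missed the threshold without mouse 184, 203, 216, 222 or 259 and Ctsa without mouse 203 or 259, whereas Ctsc passed without mouse 222 or 236, and the other calls were the same. Which of these genes passed also depended on the method. By the Wald test of DESeq2, Ctsc, Ctsh and Ctsb passed as higher too, and without the filter on low counts Ctsc and Ctsh did. The order in cortex differed from that in A-/Pwt/wt microglia, with Ctsb second to Cst3 in the A-/Pwt/wt library (93.7 and 891 CPM per kb).

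**Figure D4:**
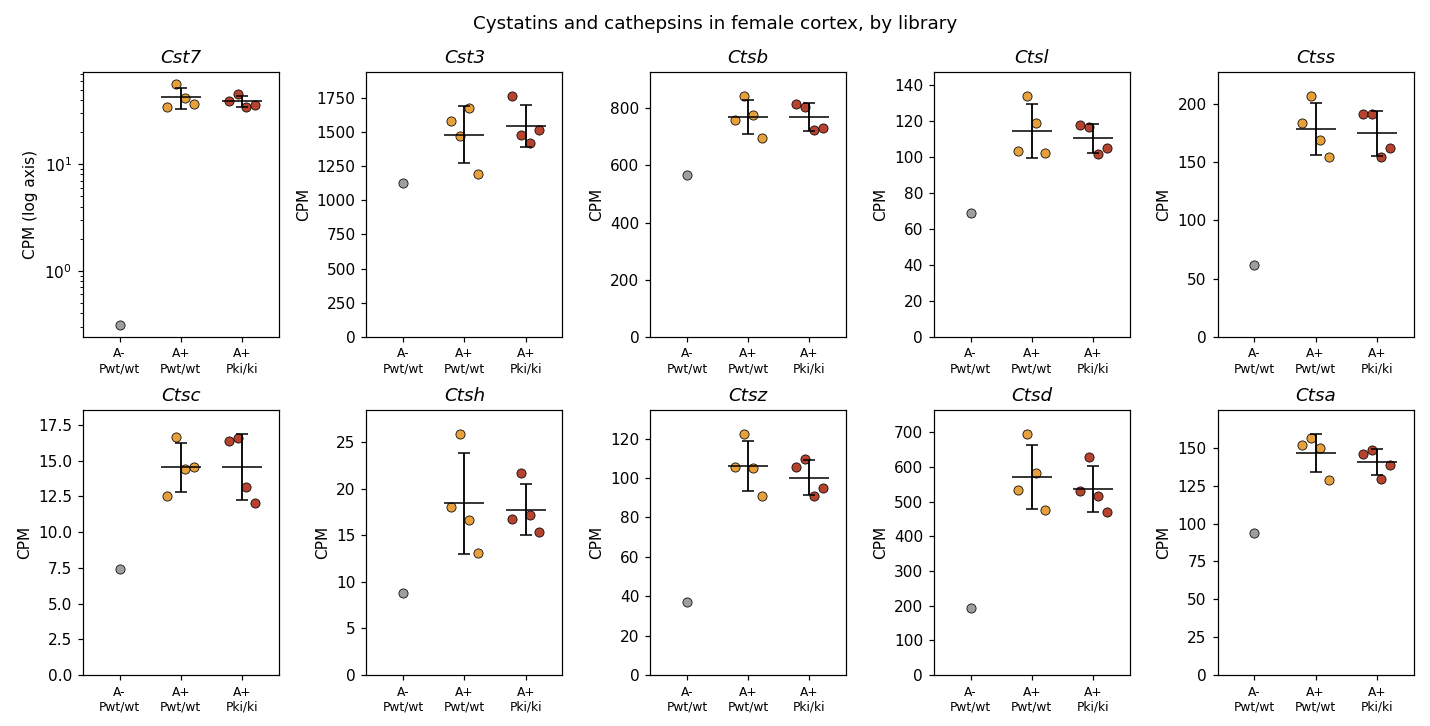
CPM of the 10 genes in each female cortex library (y axis; logarithmic for Cst7, linear from 0 for the others) by genotype (x axis), with 1 point per library and the mean ± SD as bars where a group has several libraries. The A-/Pwt/wt library lies under each A+ library in all 10 panels, by the widest margin for Cst7 (0.312 CPM against 34.7 CPM or more in A+/Pwt/wt).

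Scores of astrocyte and microglial markers were also higher in A+/Pwt/wt cortex. The astrocyte score was 7.71 in the A-/Pwt/wt library and 8.02 to 8.19 in A+/Pwt/wt, where Gfap was the 1 of 10 astrocyte markers that passed as higher. All 8 oligodendrocyte markers had positive log2FC (median 0.35) without a call, but their score overlapped (7.82 in A-/Pwt/wt and 7.79 to 8.50 in A+/Pwt/wt). Of 12 microglial markers, 8 passed the test as higher (median log2FC of the list 1.02, score 4.95 in A-/Pwt/wt and 5.80 to 6.11 in A+/Pwt/wt), and of 10 general myeloid genes 6 did (median log2FC 1.12), whereas 0 of these 10 passed between the A+/Pwt/wt and A-/Pwt/wt microglia. When the libraries were scaled to the summed counts of those 10 general myeloid genes, an alternative added after seeing this, Cst7, Ctsd, Ctss and Ctsz were called higher here too (log2FC 5.95, 0.42, 0.40 and 0.39). Under the same scaling Cst3, Ctsb, Ctsa and Ctsl were called lower (log2FC -0.74, -0.69, -0.49 and -0.39) with the median of all genes at -1.13, so the direction of these 4 genes depends on the scaling. Ctsc (-0.15) and Ctsh (-0.08) also had a negative log2FC under it, without a call. Of the other genes of the pathway, Dpp7 (log2FC 0.75, SE 0.15, adjusted p = 0.0317), Grn (log2FC 0.95, SE 0.17, adjusted p = 0.0135), and Serpina3n, the gene of a secreted serine protease inhibitor (log2FC 1.76, SE 0.27, adjusted p = 0.00528), passed as higher. So did Ctse, with 0 counts in the A-/Pwt/wt library, which allows up to 0.0706 CPM, and 0.953 ± 0.332 CPM in A+/Pwt/wt.

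The 10 genes had higher CPM in CD11b+ microglia than in cortex, by a factor that differed between them. In A+/Pwt/wt females the ratio of mean CPM was 30.2 for Ctss, 21.5 for Ctsc and 18.6 for Ctsh, which is the range of the microglial genes C1qa (22.6) and P2ry12 (20.2). It was 15.8 for Cst7, 13.4 for Ctsz and 12.3 for Ctsd. The lowest ratios were those of Ctsl (9.28), Cst3 (8.28), Ctsa (7.46) and Ctsb (5.72), and the astrocyte gene Aqp4 was at 0.349 and the neuronal gene Snap25 at 0.0527. The ratio was above 1 for each of the 10 genes in all 3 genotypes, also after TMM scaling over both tissues. RNA of some other cells was also higher in CD11b+ than in cortex libraries of A+/Pwt/wt. Median summed marker CPM was 41418 against 4956 for oligodendrocytes, 1329 against 308 for endothelial and mural cells and 2019 against 69.3 for choroid plexus. Oligodendrocyte scores overlapped between the tissues (7.39 to 8.55 and 7.79 to 8.50), and astrocyte and neuron scores were lower in CD11b+ libraries. Which cells gave each ratio was not tested. These ratios compare tables from different tissues and mice and are given without a test.

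The comparison of KI with WT males addressed the KI effect without APP/PS1 transgenes. No member passed the test between KI and WT CD11b+ microglia, although each of the 10 log2FC was negative (median -0.22; median of all genes -0.00121), where 5.26% of all 16373 genes were called lower. Each of the 10 genes overlapped between the groups, while 11.5% of all genes were lower without overlap. None of the 10 had an unadjusted p under 0.05 with edgeR, and DESeq2 and limma called 0 of them. The WT libraries lay close together and the KI libraries apart: Ctsd was at 4132, 4298 and 4319 CPM in WT and at 2454, 2601, 3910.3 and 5799.6 CPM in KI (log2FC -0.25, SE 0.29, adjusted p = 0.572), and Ctsb at 2391, 2420.2 and 2519.8 CPM in WT and at 1566, 1812, 2472 and 2643 CPM in KI (log2FC -0.25, SE 0.19, adjusted p = 0.404). Cst7 was at 19.4, 20.1 and 27.7 CPM in WT and at 6.20, 8.35, 14.4 and 33.8 CPM in KI (log2FC -0.57, SE 0.47, adjusted p = 0.427). For Ctsc, 332, 346 and 399 CPM in WT stood against 227, 250.3, 336 and 365 CPM in KI (log2FC -0.33, SE 0.16, adjusted p = 0.179).

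Mouse 104 stood apart from the other KI males. Its library was the highest of the 4 KI libraries for each of the 10 genes, and for 9 of them, with Ctsc as the exception, also above each WT library. Without it, Cst7, Ctsc, Ctsd, Ctsz and Ctsa passed the test as lower in KI (log2FC -1.24, -0.44, -0.54, -0.39 and -0.35; adjusted p = 0.00811, 0.0329, 0.0401, 0.0459 and 0.0439), 5 of 10 where 13.3% of all genes did. Beside this, all 12 neuronal markers (median log2FC 2.10) and all 10 astrocyte markers (median 1.14) passed as higher in KI males, as did 5 of 8 oligodendrocyte markers (median 1.06) and 3 of 8 endothelial and mural markers (median 0.78), where 11.1% of all genes were called higher. The 12 microglial markers each had a negative log2FC (median -0.40, with Sall1 called). The part of these other cells in the lower cathepsin values was not tested. When libraries were scaled to the general myeloid genes, the median log2FC of the 10 genes was 0.10 and that of all genes 0.37, and the direction turned for each gene but Cst7 (-0.38). Among the other genes of the pathway, the inhibitors Serpina3n (log2FC 1.35, SE 0.38, adjusted p = 0.0419), Serpinb1a (log2FC 0.89, SE 0.23, adjusted p = 0.0298) and Serpinb6a (log2FC 0.49, SE 0.13, adjusted p = 0.0293) passed as higher, and the transcription factor gene Tfe3 (log2FC -0.45, SE 0.12, adjusted p = 0.0336) as lower.

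**Figure D5:**
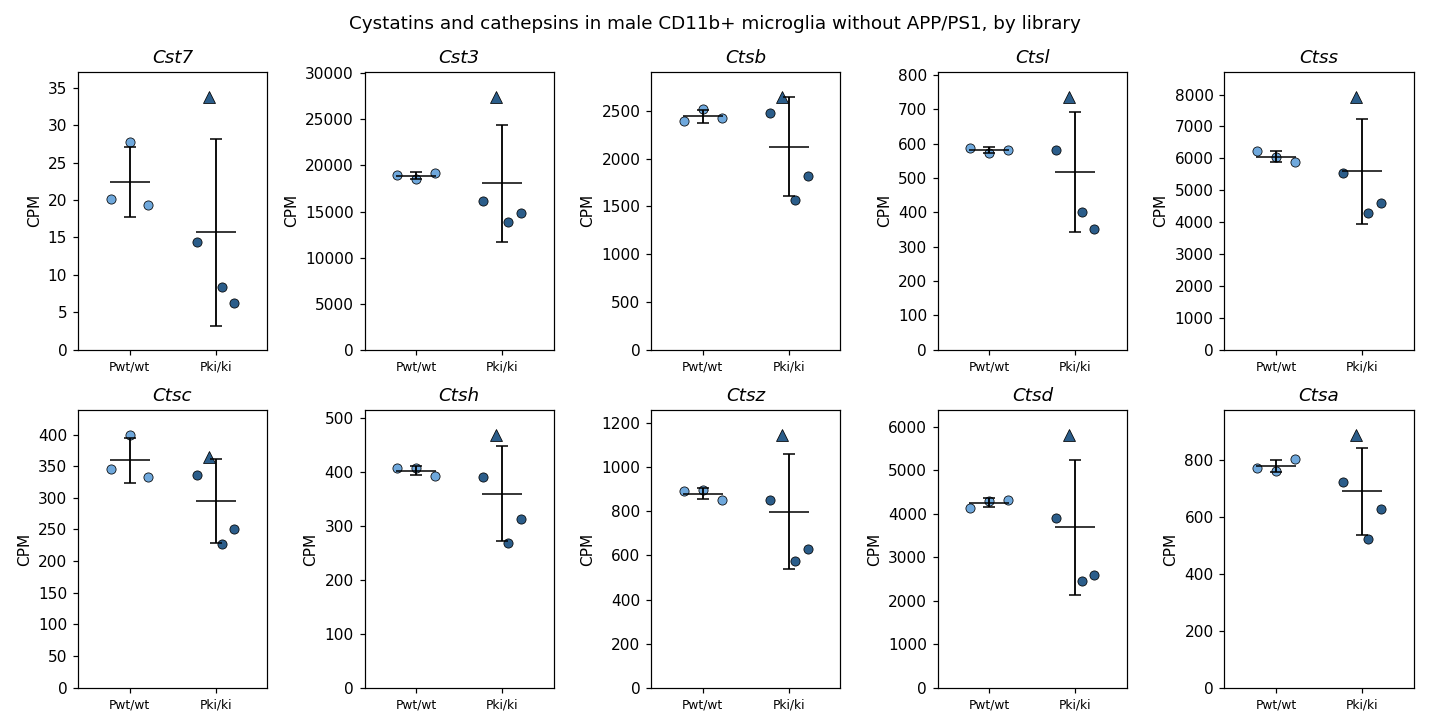
CPM of the 10 genes in each male CD11b+ library without APP/PS1 (y axis, linear from 0) in WT and KI mice (x axis), with 1 point per library and the mean ± SD as bars; the triangle is the KI library of mouse 104. The WT libraries cluster (Ctsd 4132 to 4319 CPM), and the KI libraries spread from 2454 to 5799.6 CPM with mouse 104 at the top.

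Whether the KI effect differed between males without and females with APP/PS1 was tested as an interaction. The difference in log2FC (male minus female) ran from -0.55 for Cst7 (95% interval -1.68 to 0.57) to -0.12. edgeR called 0 of the 10 genes and 0% of all 17619 genes, with 4664 genes and none of the 10 at an unadjusted p under 0.05, and DESeq2 called 1185 genes, again none of the 10. Without mouse 335 edgeR called 6199 genes, still none of the 10. Sex, APP/PS1 and the batch tag of the column names differ together in this comparison and cannot be told apart.

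Within the 7 A-/Pwt/wt female CD11b+ libraries, each of the 10 genes had a negative Pearson r with the neuron score, between -0.75 for Ctsc (exact permutation p = 0.0391, Spearman rho -0.57 with p = 0.200) and -0.27 for Cst3. Over the 10 relations the lowest adjusted p was 0.330 in exact two-sided permutation tests, so none passed. Without the 2 libraries farthest from the median score (mice 223 and 242), r was -0.14 for Ctsc and positive for the other 9 genes, so the relation rests on those samples.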

How the data were processed

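RNA-seq of mouse cortex and CD11b+ brain cells was used as deposited. The authors trimmed the reads (Trimmomatic 0.39, FastQC 0.11.7), aligned them to GRCm38 with STAR 2.7.9a and counted unique primary alignments per GENCODE gene without strand (featureCounts, given as 2.12.0 in the submitters' processing notes, R 4.2.2), and these counts were deposited as 1 table per tissue and sex, with 16229831 to 43129427 counts per library. A second set of tables holds the authors' variance-stabilizing transform of the counts, whose scale is close to log2, and served only for 1 alternative. The 10 genes, the other gene lists and the marker lists were chosen with earlier results of these data known.

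A gene entered a test when 3 or more of the fitted libraries held 10 or more counts, and the test was done with edgeR 4.0.16 (TMM, quasi-likelihood test, two-sided, R 4.3.3), with Benjamini-Hochberg adjustment over all genes tested and a threshold of 0.05. Each fit held the groups compared, except that all 9 cortex libraries entered the fit with the single A-/Pwt/wt library. SE is the absolute log2FC divided by the square root of F, and a 95% interval is the log2FC ± 1.96 SE. This multiplier is that of a normal distribution, so with few libraries the intervals are narrower than the test implies. For Ctsc in KI males the interval was -0.64 to -0.019, while edgeR's test gave an unadjusted p of 0.0657. Libraries are separate mice by their labels. Levels are CPM after TMM within a table, and levels per kilobase use the exon length in GENCODE M21, which is on the same build and shares all 10 gene identifiers. This length merges the exons of all transcripts of a gene (986 bases for Cst7 and 6489 for Ctsl). It can exceed the length of any single transcript, so orders and ratios per kilobase depend on it. Marker scores are the mean log2 CPM (prior count 2) of a list. Exact permutation tests and intervals used SciPy 1.17.1 (Python 3.11.15), and intervals and limits from counts cover counting error only. Depth did not limit the members' values except for Cst7 in the A-/Pwt/wt cortex.

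The text names the 10 genes, Plcg2, up to 4 called genes of each other pathway list and comparison by size of log2FC, the 3 most abundant genes of each such list, and the 5 genes most like Cst7. Markers named for other cells and the genes set beside the tissue ratios were chosen after their values were seen. Alternatives were DESeq2's size factors, no filter on low counts, the Wald test of DESeq2 1.42.0, limma 3.58.1 on the variance-stabilized values, all groups of a table in 1 fit, scaling to general myeloid genes, leaving out each library and, added after seeing the data, leaving out the 2 A-/Pwt/wt libraries of highest neuron score. The fits were also run on simulated counts as a check of the code. That check set a limit on false calls for all comparisons, but required recovery of changed genes only for the KI comparison in cortex. It does not measure how many changes the other comparisons would miss. The RefSeq promoter windows come from GRCm38.p6.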

Additional observations from a re-analysis of the deposited data

Results flagged for a closer look

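Within groups of 4 to 10 libraries, 60 groups of values of the 10 genes were examined for a library far from the others by Dixon's ratio, which flags about 1 in 20 groups by chance, and 3 were past its 95% critical value, each by little. Cst3 was at 27429.9 CPM in the KI male of mouse 104, where the next KI library was at 16103.7 CPM (ratio 0.832). Ctsc was at 173.8 CPM in the A-/Pwt/wt female of mouse 223, where the next library was at 277.6 CPM (ratio 0.589). Ctsh was at 185.0 CPM in the same library, where the next was at 306.1 CPM (ratio 0.571).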

How the results depend on the processing

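Each result was recomputed under 1 other choice at a time, and the causes of the changes were not tested. Under the DESeq2 Wald test, scaling to general myeloid genes, or without the 2 A-/Pwt/wt libraries of highest neuron score, 6 members were higher in A+/Pwt/wt than in A-/Pwt/wt microglia (3 in the report). The number of genes called there was 636 by DESeq2 and 634 without those 2 libraries (224 in the report). Genes called in A+/Pki/ki against A-/Pwt/wt microglia numbered 956 by DESeq2, 510 with all groups in 1 fit and 122 with the myeloid scaling (286 in the report), in A+/Pki/ki against A+/Pwt/wt microglia 7 by DESeq2 (0), and in the same contrast in cortex 40 without the filter and 11 by DESeq2 (0). In A+/Pwt/wt against A-/Pwt/wt cortex they numbered 313 without the filter, 304 by DESeq2 and 14769 with the myeloid scaling, under which 4 members were lower (167 genes and 0 members in the report). They numbered 1611 in KI males with the myeloid scaling (2685) and 1185 for the difference of KI effects by DESeq2 (0).

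Leaving out 1 library at a time gave 1 to 6 members and 91 to 497 genes for A+/Pwt/wt against A-/Pwt/wt microglia, 1 to 6 members and 57 to 1097 genes for A+/Pki/ki against A-/Pwt/wt (1097 without mouse 335), 0 to 1 gene for KI in A+ microglia and 0 to 2 in cortex. For KI males it gave 0 to 5 members as lower, all 5 without mouse 104, and 894 to 5439 genes, and for the difference of KI effects 0 to 6199 genes (6199 without mouse 335). No member was called in the KI comparisons of A+ mice or in the difference under any of these alternatives.

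The sign turned for Cst3 in A+/Pki/ki against A-/Pwt/wt microglia (0.00 in the report), to -0.0105 with DESeq2's size factors, -0.0123 without the filter, -0.0105 by DESeq2, -2.51e-05 with all groups in 1 fit, -0.21 with the myeloid scaling and -0.0019 without the 2 libraries, and ran from -0.086 to 0.092 when 1 library was left out. With the myeloid scaling, A+/Pwt/wt against A-/Pwt/wt cortex gave Cst3 -0.74, Ctsb -0.69, Ctsa -0.49, Ctsl -0.39, Ctsc -0.15 and Ctsh -0.077, and KI males gave Cst3 0.19, Ctss 0.15, Ctsh 0.12, Ctsz 0.12, Ctsa 0.11, Ctsl 0.090, Ctsb 0.079, Ctsd 0.026 and Ctsc 0.00059. In KI against wild-type A+ microglia it gave Cst7 -0.17 and Ctsd -0.15, which ran from -0.091 to 0.16 and from -0.068 to 0.16 when 1 library was left out, and in cortex Cst7 ran from -0.22 to 0.031 and Ctsd from -0.18 to 0.0080. No paired analysis was possible because the groups compared shared no mouse numbers within a tissue. Depth limited only Cst7 in the A-/Pwt/wt cortex.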
